A study of Mus musculus with 10 samples.

Results

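The cells described here are cochlear cells of old mice that carried transcripts of at least 3 of the 6 genes Pcdh17, Vldlr, Tnnt2, Aqp4, Agr3 and Phyhipl, and they are called Aqp4 Tnnt2 cells below. A barcode was kept when it had at least 200 genes, at least 1000 unique molecular identifiers (UMIs, each standing for 1 captured transcript) and less than 25% mitochondrial UMIs. A kept cell was taken when it had a UMI in 3 or more of these 6 gate genes, in fewer than 3 of Slitrk6, Dgkb, Baiap2l1, Nrcam and Ednrb, which mark another group of cochlear supporting cells (SCs), and in fewer than 3 of the hair cell (HC) genes Myo6, Myo7a, Pou4f3, Tmc1, Kncn and Gfi1. The rule took 517 of the 7272 kept cochlear cells, out of 17696 kept cells in all libraries used.

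The libraries came from wild-type CBA/J mice aged 22 months, with 7 to 8 mice of both sexes pooled in each library, and libraries of young mice were not used here, so age was not compared. Whole cochlear and vestibular organs were digested with collagenase IV and captured as single cells with droplet (10x) chemistry, and the deposited values are raw UMI counts. All groups share genotype, strain and age, and they differ by organ. The libraries used held 2738036 to 26974948 UMIs each, and replicate 3 was the largest in both organs. Replicates 1 and 2 held the same cells in each organ and were counted as 1 sample, so replicates 1, 3, 4 and 5 were used (n = 4 libraries per organ). The design text of the series gives 6 cochlear and 4 vestibular replicates where the sample labels and protocols give 5 of each, and the sample labels were followed. Their counts differed by less than the sampling noise, with a chi-square per gene of 0.139 (cochlea) and 0.119 (vestibule), where replicates 1 and 4 gave 32.6 and 51.2, while no other 2 libraries had more than 41 barcodes in common.

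SCs surround the sensory HCs of the organ of Corti, the sound-sensing epithelium of the cochlea, and continue on its outer and inner sides as Hensen, Claudius and sulcus cells. They hold the HCs in place, carry potassium away from them through gap junctions, and secrete parts of the overlying extracellular matrix. Aqp4 encodes a water channel known in the cochlea from SCs beside the HCs, and Tnnt2 the cardiac form of troponin T, a protein of the muscle thin filament. Vldlr encodes a lipoprotein and reelin receptor, Pcdh17 a delta protocadherin that joins cells, and Agr3 a protein disulfide isomerase of the endoplasmic reticulum.

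The cells were 62, 275, 111 and 69 in cochlear replicates 1, 3, 4 and 5. They made up 10.9%, 5.42%, 16.0% and 7.37% of the kept cells, a mean of 9.91% ± 4.63 (SD, n = 4), and replicate 4 stood highest. The exact binomial 95% interval was 4.82 to 6.08% in replicate 3 and 13.3 to 18.9% in replicate 4, so these libraries differed by more than counting error. Intervals cover counting error only. Deep cells pass such a gate more readily: Aqp4 Tnnt2 cells held a median of 7248 UMIs, against 2174 in all kept cochlear cells. When each kept cell was read at only 1000 UMIs, the mean share was 2.32%. In the vestibule the same gate passed 0, 18, 1 and 1 cells, or 20 of 10424, with at most 0.331% in any library, and the 0 of 867 cells in vestibular replicate 1 allows a share of up to 0.346% as 3 counts, or 0.425% by the exact interval.

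**Figure D1:**
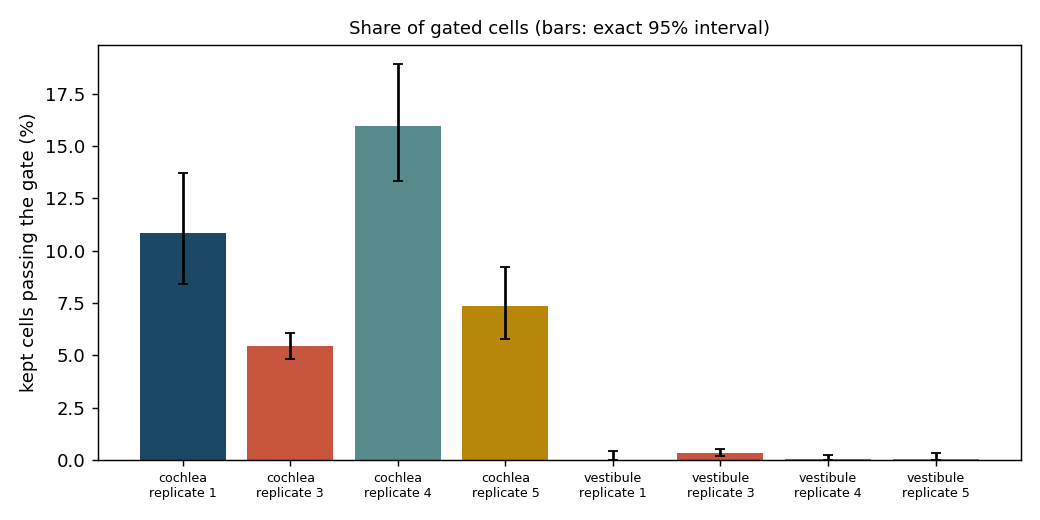
The y axis is the percentage of kept cells that passed the gate in each library, and error bars are exact binomial 95% intervals. The 4 cochlear libraries lie between 5.42% and 16.0%, and the 4 vestibular libraries lie at or under 0.331%.

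The cells were chosen by UMIs of the gate genes in each cell, so the levels of these genes describe the rule and are not a finding. Levels are CPM, the UMIs of a gene per 1000000 UMIs summed over the cells of a library, and errors are the SD over the 4 libraries. Tnnt2 (chr1:135836354-135852260, GRCm38) was at 447, 561, 667 and 206 CPM in replicates 1, 3, 4 and 5, lowest in replicate 5. Vldlr (chr19:27216484-27254231) was at 915, 469, 502 and 409.6 CPM, highest in replicate 1. Aqp4 was at 345, 196, 206 and 236 CPM. The means of the other gate genes were 608 ± 136 CPM for Phyhipl (chr10:70557682-70655965), 172 ± 90.0 CPM for Pcdh17 (chr14:84443563-84539002) and 88.1 ± 18.7 CPM for Agr3 (chr12:35925620-35949736). A UMI of Phyhipl was present in 92.3% of the cells, of Vldlr in 88.4%, of Aqp4 in 73.9%, of Tnnt2 in 61.3%, of Pcdh17 in 36.4% and of Agr3 in 30.4%. Cochlear macrophage-like cells, which should lack these genes, were set beside them. They were taken with fewer than 3 gate genes, so their low shares are in part fixed by that rule. The same shares there ran from 0.180% for Agr3 to 3.77% for Vldlr at a median of 2595 UMIs. Read at 1000 UMIs per cell, Tnnt2 was seen in 25.5% of the Aqp4 Tnnt2 cells and 1.08% of the macrophage-like cells.

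**Figure D2:**
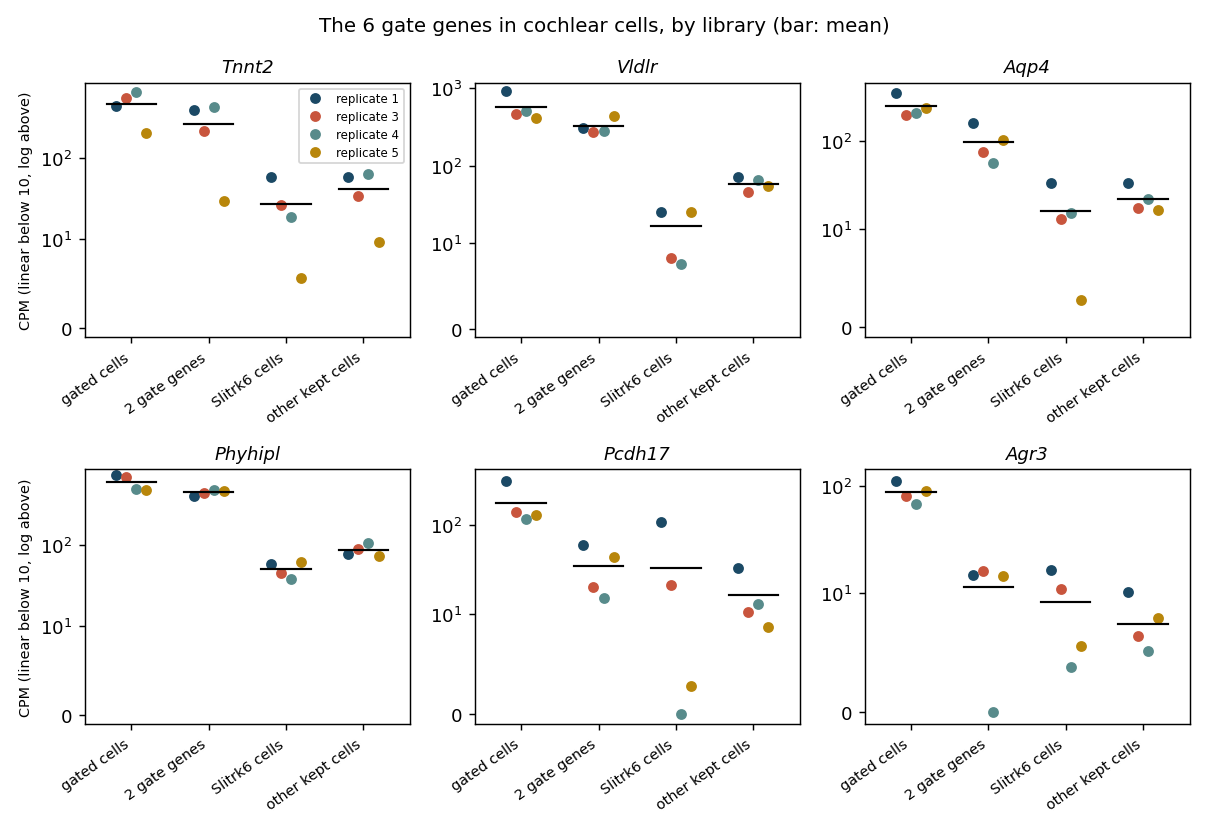
Each point is 1 library, the y axis is CPM (linear below 10, logarithmic above) and bars are means, for Aqp4 Tnnt2 cells, cells with exactly 2 gate genes, Slitrk6 cells and all other kept cochlear cells. Cells with 2 gate genes lie between the Aqp4 Tnnt2 cells and the other groups for all 6 genes, and Tnnt2 is lowest in replicate 5 in every group.

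The promoter of the gene that gives the cells part of their name is shown because troponin T is a muscle gene measured here in an epithelium. The sequence is that of RefSeq on GRCm38.p6, chr1:135836084-135836343, plus strand, from 250 bases before the first of 2 listed Tnnt2 starts to 10 bases from it. Capitals mark the MCAT motif of muscle genes, CATTCC, and a GATA motif, AGATAA, which is read here on the opposite strand as TTATCT.
Tnnt2: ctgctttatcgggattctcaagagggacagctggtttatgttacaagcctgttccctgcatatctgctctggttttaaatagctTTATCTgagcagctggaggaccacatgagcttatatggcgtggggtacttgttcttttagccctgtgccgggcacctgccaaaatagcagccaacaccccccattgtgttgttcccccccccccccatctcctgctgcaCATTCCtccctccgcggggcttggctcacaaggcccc
The MCAT match begins 27 bases before the start and the GATA match 166 bases before it. On either strand, 13.2% of the 32851 RefSeq promoters of this length hold the first motif and 10.3% the second, so a match describes the letters and nothing more.

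The cells just inside and just outside the gate were set side by side without a test. The 267 cells with exactly 3 gate genes had 4836 ± 1659 CPM of Epyc and 931 ± 255 CPM of Cryab, and the 447 cells with exactly 2 had 4564 ± 1402 and 909.8 ± 307 CPM. Tnnt2 was at 442 ± 219.9 CPM inside and 270.3 ± 188 CPM outside. The median depth of the cells outside was 3492 UMIs, against 5391 inside.

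The name SC was checked against genes that the gate did not read. Gata3, a transcription factor of the auditory epithelium, was at 1973, 823, 796 and 954 CPM in replicates 1, 3, 4 and 5, and replicate 1 stood apart from the others. Epcam, an epithelial adhesion molecule, was at 501, 744, 1005 and 732 CPM. Sox2, a transcription factor of SCs, was at 156, 106, 101 and 106 CPM, below its 303 ± 87.6 CPM in the Slitrk6 cells. Sox9 (274 ± 166 CPM) and Sox10 (221 ± 49.4 CPM), 2 further SOX factors of the otic epithelium, were present in every library. All 16 genes of the list of epithelial and SC identity had UMIs, from 1.94 CPM of Pax2 to 1136 CPM of Gata3. The 16 genes summed to a median of 3751 CPM, against 5191 in Slitrk6 cells and 2375 in other kept cochlear cells. The label SC thus rests on detected epithelial and SOX genes, with Sox2 and Pax2 low.

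Genes of particular SC types were unevenly represented. Of the list for Hensen, Claudius and sulcus cells, Epyc, a small leucine-rich proteoglycan (chr10:97644068-97682454), was at 3049, 4645, 4371 and 5423 CPM. Nupr1, a stress-induced nuclear protein, was at 822 ± 166 CPM, Bmp4, a secreted growth factor, at 261 ± 80.1 CPM and Gata2 at 166 ± 50.5 CPM. The receptor gene Lgr6 (0.104 CPM) and Slc26a4, the anion exchanger pendrin (14.5 CPM), of the same list were low. Of the list for Deiters and pillar cells, Cryab, a small heat shock protein, was at 1298, 1757, 1097 and 1516 CPM. The receptors Fgfr3 (27.3 CPM) and Lgr5 (28.3 CPM) and the transcription factor Prox1 (2.73 CPM) of the same list were low, and Hes5 and Emid1 had no UMI, where 3 counts over the summed 4655808 UMIs of these cells correspond to 0.644 CPM. Slc1a3, the glutamate transporter of inner phalangeal and border cells, was at 41.1 ± 28.3 CPM, and Otol1 of that list had no UMI. No single one of these cell types is given to the cells here.

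The most abundant nuclear-encoded transcripts after Malat1 were those of the calcium-binding protein S100a1 (27664 ± 5427 CPM) and of Skp1a and Fbxo2, the ubiquitin ligase pair that is abundant in the organ of Corti. These genes and those named next were chosen after their values were seen. Skp1a was at 12301, 18746, 16786 and 18289 CPM, and Fbxo2 at 6700.1, 16714, 16026 and 13517 CPM, both lowest in replicate 1. S100a13, annotated 42 bases from S100a1 on chromosome 3, was at 11252 ± 1464 CPM. Lgals1, the sugar-binding galectin 1, was at 2647, 9004, 7541 and 8661 CPM, and replicate 1 was again the lowest. UMIs come from transcript ends, so these levels are per molecule captured and were not divided by gene length.

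Water channels and their anchors were looked at next. Of 8 aquaporin genes, Aqp4 and Aqp11, an intracellular channel, carried nearly all UMIs. Aqp11 was at 245, 244, 193 and 275 CPM, and its spread of 34.3 CPM was small beside its mean of 239 CPM. Aqp5, Aqp3, Aqp1 and Aqp2 lay between 0.104 and 3.66 CPM, and Aqp7 and Aqp9 had no UMI. Aqp4 is tied to the dystrophin complex at glial endfeet, and all 11 genes listed for this complex were detected. They summed to a median of 442 CPM, close to the 436 CPM in other kept cochlear cells, and to 365 CPM in Slitrk6 cells. Utrn, which encodes the dystrophin relative utrophin, was at 222, 128, 207 and 122 CPM, Dag1 (dystroglycan) at 96.3 ± 32.8 CPM and Dmd (dystrophin) at 20.2 CPM.

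Gap junction and ion transport genes, which serve potassium handling in SCs, were read next. Gjb2 and Gjb6, the 2 main cochlear connexins, lie 18.6 kb apart on chromosome 14 and were at 840.3 ± 103 and 602 ± 182 CPM. The other 6 connexins listed were at 2.30 CPM or less. Atp1b1, a sodium pump subunit, was at 994, 773, 970.5 and 843 CPM. The potassium channel gene Kcnj16 was at 1411, 479.8, 554 and 532 CPM and the potassium chloride cotransporter gene Slc12a7 at 373, 134, 143 and 124 CPM, both with replicate 1 above all other libraries. Kcnj10, the gene of the partner channel of Kcnj16, was at 163 ± 113 CPM. Kcne1 (0.518 CPM) and Bsnd (no UMI), 2 genes of marginal cells of the stria vascularis, were at or under the 3-count limit.

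Tnnt2 was set beside the genes of its muscle partners. Of the 19 troponin, tropomyosin and sarcomere genes, 9 had no UMI, among them Tnni1, Tnni2, Tnni3, Actc1, Myh6 and Myh7, and Tnnc1, the troponin C of heart and slow muscle, was at 2.31 CPM. The tropomyosin genes Tpm3 (164 ± 24.8 CPM) and Tpm1 (79.5 ± 9.90 CPM), which are also used outside muscle, were the most abundant of the list after Tnnt2. Likewise the reelin pathway was present only in part: Reln and Dab1 had no UMI and Lrp8, the other reelin receptor, was at 0.210 CPM, while Pafah1b1 was at 258 ± 53.7 CPM. Among 10 delta protocadherins, Pcdh17 was followed by Pcdh7 at 23.3 ± 5.21 CPM, and the others were at 11.7 CPM or less. Agr2, the neighbour of Agr3 at a distance of 43.2 kb on chromosome 12, was at 17.9, 32.3, 14.3 and 36.3 CPM. The general disulfide isomerase genes Pdia3 (319 ± 16.7 CPM), Pdia4 (244 ± 68.7 CPM) and Pdia6 (174 ± 36.9 CPM) were expressed in all libraries.

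Notch signalling keeps SCs from becoming HCs during development, with ligands on HCs and Hes and Hey repressors as targets in SCs. Here the receptor gene Notch1 was at 86.0 ± 44.0 CPM, and the ligand genes Jag1 and Dll1 at 43.9 and 0.104 CPM. Among the targets, Hes5 had no UMI, Hes1 was at 183 ± 62.0 CPM, Heyl at 94.3 ± 35.5 CPM, Hey1 at 143, 59.7, 58.9 and 71.0 CPM and Hey2 at 120.1, 71.7, 53.8 and 77.1 CPM. All 3 Hey genes were highest in replicate 1. Lfng, a modifier of Notch receptors that marks SCs beside inner HCs, was at 2.37 ± 0.599 CPM.

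The Hey2 promoter is shown because Hey2 differed both among these cells and between organs, as given below. It is chr10:30842774-30843033, minus strand, of RefSeq on GRCm38.p6, from 250 bases before the start to 10 bases from it. Capitals mark GTGGGAA, the core bound by the Notch partner Rbpj, on either strand (opposite strand: TTCCCAC).
Hey2: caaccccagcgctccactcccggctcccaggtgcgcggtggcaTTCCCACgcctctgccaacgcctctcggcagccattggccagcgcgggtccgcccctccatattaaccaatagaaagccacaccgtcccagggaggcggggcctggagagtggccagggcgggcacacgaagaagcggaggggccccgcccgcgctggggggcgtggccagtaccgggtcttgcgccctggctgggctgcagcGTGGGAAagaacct
The 2 matches begin 207 and 4 bases before the start, and 5.58% of RefSeq promoters hold at least 1 match. Rbpj itself was at 52.7 CPM on average.

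Among secreted factors and inhibitors of growth, the Wnt inhibitor genes Frzb and Sfrp1 were at 119.8 ± 17.3 and 110.2 ± 39.5 CPM. Id3, Id2 and Id1, nuclear targets of BMP signals, were at 711 ± 107, 352 ± 99.8 and 262 ± 63.6 CPM. The cell cycle inhibitor Cdkn1b was at 345, 474, 539.9 and 555 CPM, and Lockd, a long non-coding RNA gene 3.58 kb from it on chromosome 6, was at 222, 169, 172 and 328 CPM. The senescence marker Cdkn2a was at 0.104 CPM and Cdkn1a at 76.2 ± 14.1 CPM. Of the tight junction genes, Cldn9 (359 ± 52.7 CPM), Cldn7 (208 ± 25.3 CPM) and Cldn3 (138 ± 16.1 CPM) led, and Cldn14, a claudin gene of human deafness, was at 60.9 ± 4.57 CPM.

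The Aqp4 Tnnt2 cells were not uniform. Those with a UMI in 3, 4, 5 and 6 of the gate genes numbered 267, 123, 77 and 50, and their median depths were 5391, 7335, 10007 and 17932.5 UMIs. Depth thus moves with the number of gate genes, and its part in the following differences was not tested. The groups were formed from the same cells and genes, so the differences are described without a test. Cells with 5 or 6 gate genes lay above those with 3 in all libraries, without overlap, for 2.67% of 9230 measured genes (246), and below for 3.3% (305).

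Sox2 was at 217, 211, 211 and 171 CPM in cells with 5 or 6 gate genes and at 95.6, 29.1, 24.3 and 72.7 CPM in those with 3. The libraries of the 2 groups did not overlap. Hey1 was at 134 ± 48.8 against 40.2 ± 21.8 CPM and Hey2 at 129 ± 29.8 against 43.4 ± 23.4 CPM, again without overlap. Cryab was at 1912 ± 595 against 931 ± 255 CPM, Cdkn1b at 701 ± 219 against 331 ± 13.1 CPM and Lockd at 444 ± 179 against 64.5 ± 30.9 CPM. Agr2 was at 51.5 ± 29.6 against 7.46 ± 7.49 CPM. Aqp11 was at 313 ± 73.5 against 157 ± 22.7 CPM. Pmch, the gene of the neuropeptide melanin-concentrating hormone, was at 4.93, 121, 293 and 26.6 CPM in cells with 5 or 6 gate genes and at 0, 1.94, 2.43 and 0 CPM in those with 3, a difference most of which lay in replicates 3 and 4. Pmch had no UMI in the Slitrk6 cells of any library.

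In the other direction, Ceacam16, which encodes a protein of the tectorial membrane, was at 93.6, 19.3, 73.2 and 7.61 CPM in cells with 5 or 6 gate genes and at 252, 652, 1302 and 1030.2 CPM in those with 3. Bmp4 was at 75.5 ± 62.8 against 406 ± 154 CPM and Frzb at 64.9 ± 11.8 against 169 ± 38.2 CPM, also without overlap. Rubie, a non-coding RNA gene on the same chromosome as Bmp4, was at 4.14 ± 4.22 against 72.1 ± 53.9 CPM. Car3, a carbonic anhydrase gene also listed for fibrocytes, was at 67.0 ± 102 against 709 ± 472 CPM, and its libraries overlapped. Epyc was at 3586 ± 681 against 4836 ± 1659 CPM and did not separate the groups. Transcripts of other cells moved with these groups. The 10 fibrocyte and stromal genes summed to 463 to 983 CPM in cells with 5 or 6 gate genes and 1113 to 2633 CPM in cells with 3, and the 8 macrophage genes summed to 0 to 14.8 and 0 to 513 CPM. The part of these transcripts in the differences was not tested.

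**Figure D3:**
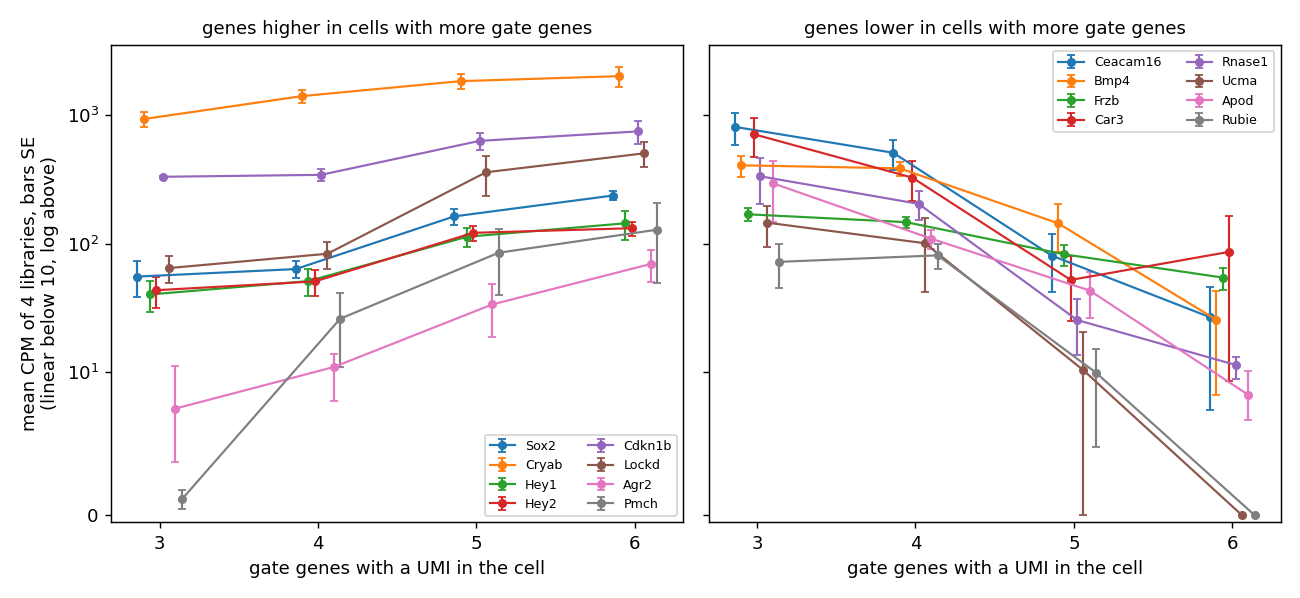
The x axis is the number of gate genes with a UMI in a cell, the y axis the mean CPM of 4 libraries (linear below 10, logarithmic above), and bars are the standard error (SD divided by the square root of 4). From 3 to 6 gate genes Sox2 goes from 55.4 to 236 CPM and Lockd from 64.5 to 504 CPM, while Bmp4 goes from 406 to 25.5 CPM.

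Next to them in the cochlea stand the Slitrk6 cells, taken by the mirror rule (at least 3 of Slitrk6, Dgkb, Baiap2l1, Nrcam and Ednrb, fewer than 3 gate genes and fewer than 3 HC genes). They numbered 371, with a median of 3504 UMIs, and 42 further cells passed both gates and were left out. Because the gate reads this contrast, the values are a description without a test. Of 9132 measured genes, 7.54% (689) lay above the Slitrk6 cells in all libraries without overlap and 8.75% (799) below. With replicate 1 left out, which has 24 Slitrk6 cells, these were 1290 and 1579 genes, and with replicate 4 left out 982 and 1209.

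Above the Slitrk6 cells lay 5 of the 9 measured genes for Hensen, Claudius and sulcus cells, namely Fst, Nupr1, Bmp4, Epyc and Gata2, and 1 lay below, Lgr6, at 0.104 ± 0.207 against 45.0 ± 14.8 CPM. The median log2 ratio of these 9 was 2.40, where that of all measured genes was -0.05. Epyc was 8.99-fold higher, at 4372 ± 988 against 486 ± 212 CPM, and Nupr1 5.31-fold higher. Krt18, a keratin of simple epithelia, was at 79.2, 90.7, 74.0 and 92.2 CPM against 0, 2.76, 0 and 8.36 CPM. Agr2 was at 25.2 ± 10.7 against 0.230 ± 0.460 CPM, and 4 of 7 measured genes of its list, with P4hb, Pdia3 and Pdia5, lay above. Aqp11 was 4.67-fold higher. Hey1 was 3.33-fold higher, and Hey2 was at 80.7 ± 28.1 against 28.6 ± 11.4 CPM. Lum, which lies 71.4 kb from Epyc and encodes another small leucine-rich proteoglycan, was 10.7-fold higher, at 491 ± 85.6 against 45.9 ± 14.7 CPM.

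Below the Slitrk6 cells lay Slc1a3, at 17.9, 38.9, 26.1 and 81.6 CPM against 1505, 1225, 1079.5 and 1516 CPM, a 32.4-fold difference. Lfng was 48.2-fold lower, at 2.37 ± 0.599 against 114 ± 15.6 CPM. The otogelin genes Otog and Otogl, which serve the acellular membranes over the HCs, were 5.04-fold and 4.12-fold lower, and Ceacam16 was 5.66-fold lower. Gsn, the actin-severing protein gelsolin, was at 55.2 ± 10.6 against 772 ± 163 CPM, and the intermediate filament gene Vim at 31.8 ± 7.27 against 287 ± 57.2 CPM. Hes1 was at 183 ± 62.0 against 526 ± 89.9 CPM, so that Hes1 and the genes Hey1 and Hey2 differed in opposite directions. Gjb2 and Gjb6 overlapped between the groups, at 840.3 ± 103 against 791 ± 99.7 CPM and 602 ± 182 against 639 ± 94.1 CPM.

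**Figure D4:**
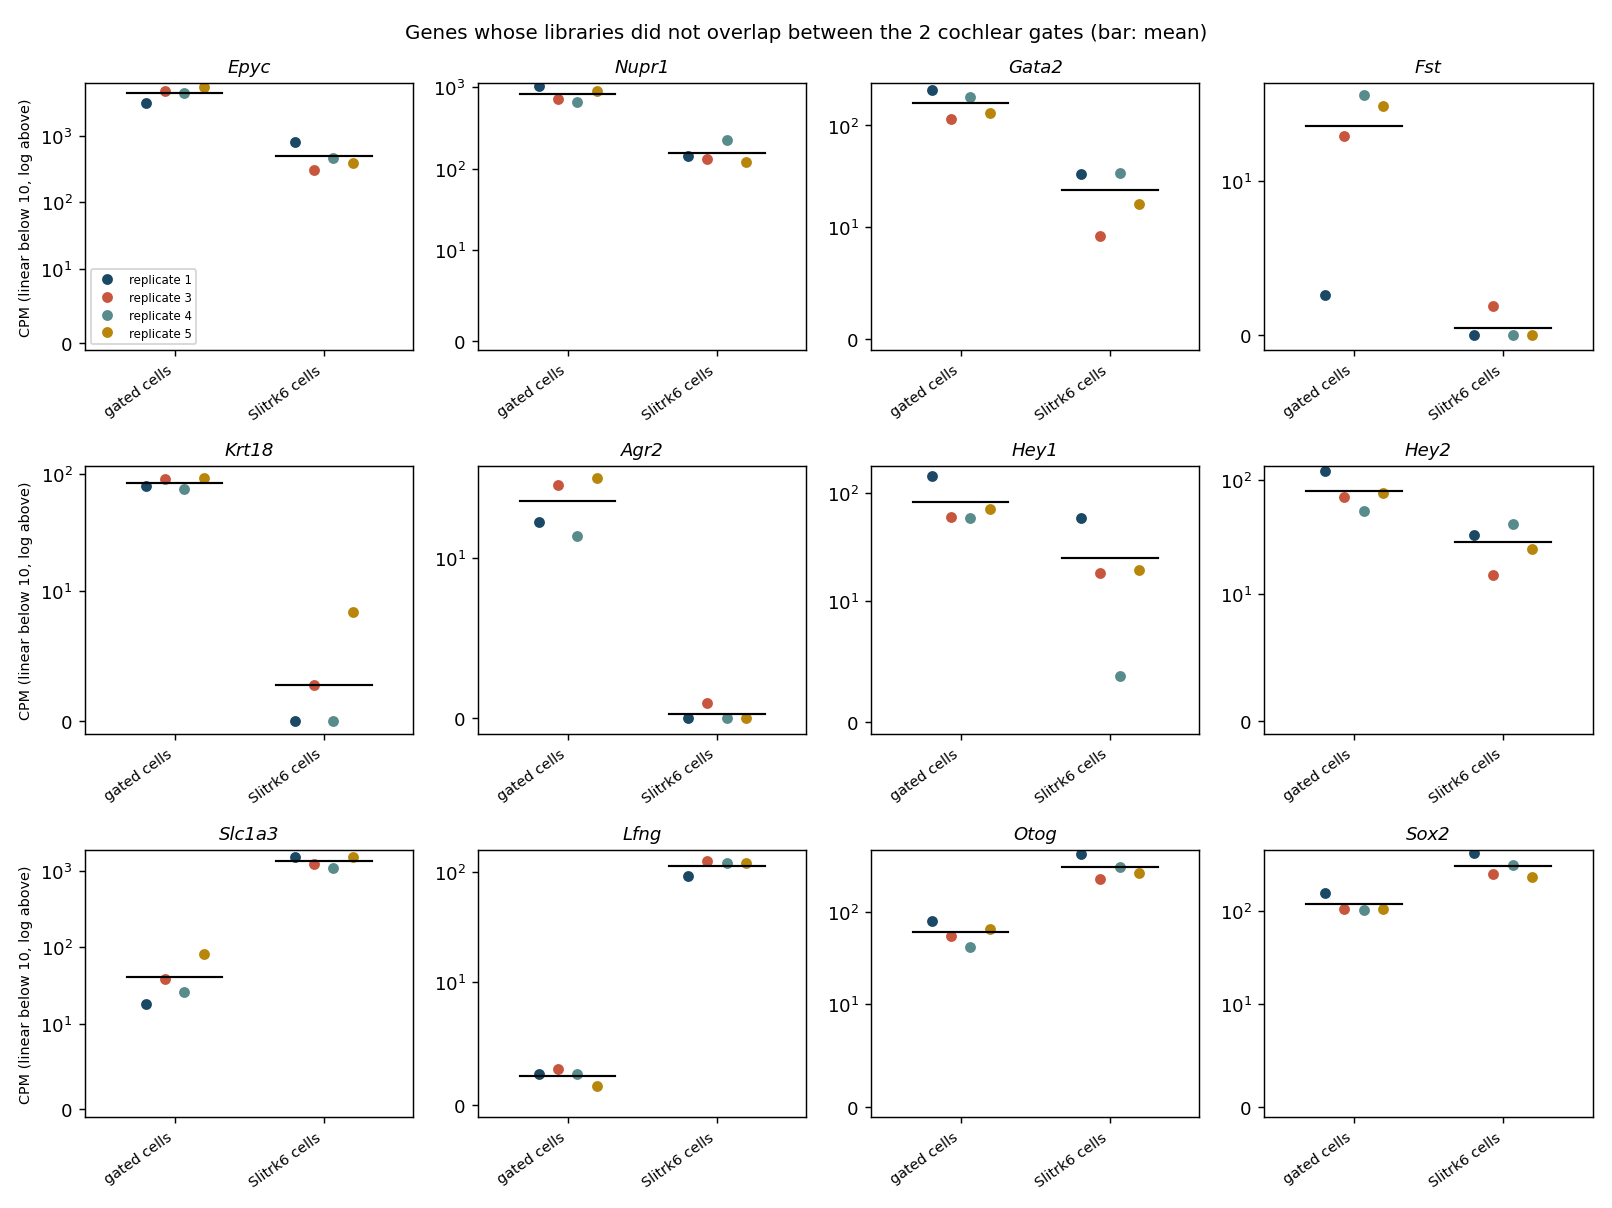
Each panel gives 1 gene, each point 1 library, the y axis CPM (linear below 10, logarithmic above) and the bar the mean, for Aqp4 Tnnt2 cells (gated cells) and Slitrk6 cells. Panels from Epyc to Hey2 have the Aqp4 Tnnt2 libraries above all Slitrk6 libraries, and those of Slc1a3, Lfng, Otog and Sox2 below.

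The difference between these cochlear cells and SCs of the vestibule was tested for genes outside both gates. The same gate found too few vestibular cells, so vestibular cells with a UMI in at least 3 of 8 SC genes (Sox2, Otog, Otogl, Lfng, Slc1a3, Tecta and Gjb6 among them) and in fewer than 3 HC genes were taken, 113, 338, 167 and 76 in replicates 1, 3, 4 and 5. As different genes chose the 2 populations, organ and kind of SC cannot be told apart. A gene that goes with either gate can differ through that choice alone, and the genes of both gates were not called. UMIs were summed per library and tested with edgeR's quasi-likelihood test with Benjamini-Hochberg adjustment over 7433 genes. At an adjusted p under 0.05, 12.9% of the genes (959) were higher in the Aqp4 Tnnt2 cells and 14.5% (1078) lower, with a median log2 fold change of 0.01. Without cochlear replicate 1, which stood apart in several genes, 1328 were higher and 1418 lower. The sources used here do not say whether cochlear and vestibular libraries of 1 number came from the same mice.

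The genes named first are the 10 largest differences in each direction without overlap between libraries among genes at 20 CPM or more whose level was also above that in the other kept cells of the organ, a limit that Ceacam16 (log2 fold change 7.25) did not meet. Of the 10 upward, Epyc was at 3049, 4645, 4371 and 5423 CPM in the Aqp4 Tnnt2 cells and at 0, 0.609, 0 and 0 CPM in the vestibular cells, where it rested on 1 UMI (ratio of pooled levels 13286, 95% counting interval 2384 to 524776). Its log2 fold change was 13.32 ± 0.51 (SE, edgeR adjusted p = 7.14e-10). Tdrd12, a Tudor domain protein known from the piRNA pathway of germ cells, was at 949 ± 184 against 1.80 ± 1.35 CPM (log2 fold change 8.94 ± 0.40). Nat8l, the enzyme that makes N-acetylaspartate, was at 569 ± 248 against 0.936 ± 1.49 CPM. Lgals1 was at 6963 ± 2944 against 41.3 ± 21.9 CPM (log2 fold change 7.51 ± 0.54). The non-coding RNA gene Gm48242 was at 158 ± 34.4 against 1.84 ± 2.71 CPM.

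The other 5 genes had no UMI in the vestibular cells. Against the limit of 3 counts over the vestibular cells, pooled levels were at least 137.9-fold higher for 9230102O04Rik, 48.9-fold for the growth factor gene Gdf6, 41.2-fold for the netrin receptor gene Unc5b, 45.8-fold for Fbln7, a fibulin of the extracellular matrix, and 27.6-fold for Crhr1, the receptor of corticotropin-releasing hormone. Their edgeR adjusted p-values lay between 1.29e-07 for 9230102O04Rik and 0.000126 for Gdf6. Gdf6 and Unc5b were highest in replicate 1, Gdf6 at 171 CPM against 37.0 to 45.3 CPM in the others.

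These differences were not confined to the Aqp4 Tnnt2 cells. In all other kept cells, cochlea over vestibule, the 10 genes were also higher, with log2 fold changes from 1.95 for Fbln7 to 8.82 for Gdf6. The other kept cochlear cells include the cells with exactly 2 gate genes, the Slitrk6 cells and the cells that passed both gates. The part of such cells and of free RNA in these values was not tested. The Slitrk6 cells against the same vestibular cells gave 9.71 for Epyc, 8.38 for Gdf6, 6.38 for Tdrd12, 5.86 for Nat8l and 4.00 for Lgals1. The difference between these contrasts was not tested.

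Of the 10 downward, 8 genes had no UMI in the Aqp4 Tnnt2 cells. Otol1, otolin of the otoconial matrix, was at 1330.5, 517, 789 and 849.8 CPM in the vestibular cells, and was at least 1097-fold lower in the pooled Aqp4 Tnnt2 cells. Abca13, a lipid transporter gene, was at least 161-fold lower, and Gad1, the enzyme that makes GABA, at least 129-fold. Bpifb4, Hmx2, Zpld1, Sbspon and Cdh4 were at least 75.5-fold to 95.7-fold lower. Hmx2 is a homeobox factor of the vestibular part of the inner ear, Zpld1 encodes a protein of the cupula, and Cdh4 a cadherin. Hhla1 was at 0.378 ± 0.756 against 206 ± 114 CPM and Ctxn3 at 0.104 ± 0.207 against 180.2 ± 114 CPM, each with 1 UMI in the Aqp4 Tnnt2 cells. In the other kept cells all 10 were lower in the cochlea too, with log2 fold changes from -10.10 for Hhla1 to -2.52 for Gad1.

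**Figure D5:**
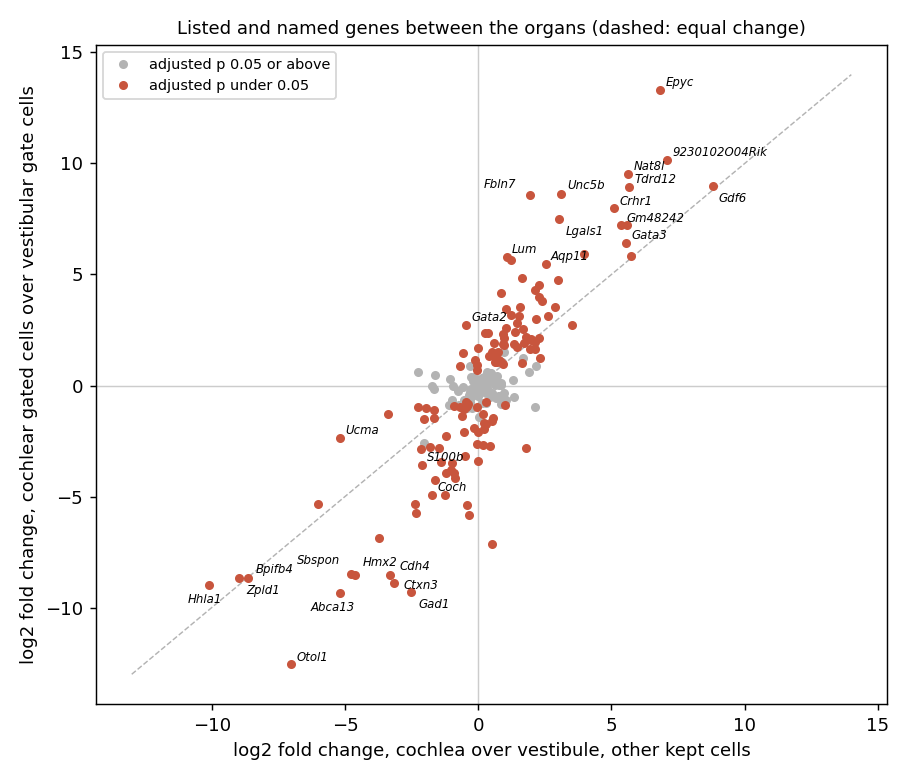
Each of 217 points is a listed or named gene, the y axis is the log2 fold change of Aqp4 Tnnt2 cells over vestibular gate cells, the x axis the same between the other kept cells of the organs, and red marks the 137 genes with an edgeR adjusted p under 0.05. Epyc (13.32 against 6.82), Lum and Lgals1 lie above the dashed line of equal change, and Gata3 and Gdf6 lie near it.

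By list, 6 of the 8 tested genes for Hensen, Claudius and sulcus cells were higher and 2 lower (Lgr6 and Slc26a4), with a median log2 fold change of 1.68. The shares over all genes were 12.9% and 14.5%, and the median was 0.01. Gata2 was at 225, 116, 189 and 131 CPM against 17.2, 37.1, 24.7 and 18.8 CPM (log2 fold change 2.72 ± 0.28, edgeR adjusted p = 3.97e-06), while the other kept cells gave -0.45. Bmp4 was at 261 ± 80.1 against 19.0 ± 9.99 CPM (3.97 ± 0.35). Nupr1 was at 1017, 707, 663 and 901 CPM against 146, 601, 215 and 129 CPM (1.70 ± 0.41, edgeR adjusted p = 0.00582), and the call was lost with cells under 10% mitochondrial UMIs (edgeR adjusted p = 0.0926). Of the Deiters and pillar list, Cryab and Ceacam16 were higher and S100b and Prox1 lower among 6 tested. S100b, a calcium-binding protein, was at 94.5, 114, 84.1 and 54.4 CPM against 889, 1508, 1032 and 1173 CPM.

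Of 14 tested identity genes, 3 were higher (Gata3, Id1 and Id3) and 4 lower (Epcam, Krt8, Krt18 and Prox1), where the shares over all genes were 12.9% and 14.5%. The call of Id1 was lost with vestibular cells holding 4 of the 8 genes (log2 fold change 0.63, edgeR adjusted p = 0.0555). Gata3 was at 1973, 823, 796 and 954 against 20.1, 17.0, 11.5 and 6.27 CPM (log2 fold change 6.43 ± 0.39), and the other kept cells gave 5.56. Epcam was at 745 ± 206 against 2181 ± 806 CPM (-1.38 ± 0.29). Sox10 did not pass the test, with 0.22 ± 0.23 (edgeR adjusted p = 0.539). Aqp11, the only aquaporin outside the gate that could be tested, was at 245, 244, 193 and 275 CPM against 5.73, 6.09, 4.93 and 6.27 CPM (5.49 ± 0.28, edgeR adjusted p = 1.80e-08), and the Slitrk6 cells gave 3.24. Aqp4 itself, which was not tested, was at 52.7 ± 9.97 CPM in the vestibular cells. Agr3, the other gate gene, was higher there than in the Aqp4 Tnnt2 cells, at 520.1 ± 89.9 against 88.1 ± 18.7 CPM, whereas Tnnt2, Vldlr, Phyhipl and Pcdh17 were at 12.9 to 18.7 CPM.

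Among 14 tested genes of potassium and chloride handling, 4 were higher and 5 lower, where the shares over all genes were 12.9% and 14.5%. Slc12a7 was at 373, 134, 143 and 124 CPM against 45.9, 34.7, 23.0 and 18.8 CPM (log2 fold change 2.73 ± 0.36). Kcnj16 was at 744 ± 445 against 263 ± 119.8 CPM (1.66 ± 0.35), and Kcnk1 (1.66) and Atp1b1 (1.04) were also higher. In the other kept cells Kcnj16, Kcnk1 and Atp1b1 gave 2.14, 1.96 and 0.72. The Slitrk6 cells, against the same vestibular cells, gave 1.43, 1.03 and -0.49. Gjb2 was higher by 0.94 ± 0.24 on the log2 scale (edgeR adjusted p = 0.00883), and this call was lost with cells under 10% mitochondrial UMIs (edgeR adjusted p = 0.0912) and with at least 5 gate genes (0.672). Of the 3 tested reelin pathway genes, 0 passed the threshold by edgeR and by DESeq2, and 0 had an unadjusted p under 0.05.

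The 3 Notch genes that were higher among 9 tested were Hey1, Hey2 and Heyl, and none was lower. Over all genes 12.9% were higher and 14.5% lower. Hey1 was at 143, 59.7, 58.9 and 71.0 CPM against 45.9, 31.6, 24.7 and 22.0 CPM (log2 fold change 1.50 ± 0.31, edgeR adjusted p = 0.0018). Hey2 and Heyl gave 1.26 ± 0.28 and 1.33 ± 0.25. In the other kept cells the 3 genes gave 0.51, 0.68 and 0.40, with edgeR adjusted p-values of 0.288 to 0.502. The Slitrk6 cells against the same vestibular cells gave 1.25 for Heyl (edgeR adjusted p = 0.0181) and -0.58 for Hey2 (0.227), and Hey1 was not tested there. Hes1 did not pass the test, at 0.61 ± 0.29 (edgeR adjusted p = 0.144), and with at least 5 gate genes at 0.92 (edgeR adjusted p = 0.0387). Lockd was at 223 ± 74.4 against 4.85 ± 3.43 CPM (5.66 ± 0.40) and its neighbour Cdkn1b at 478 ± 95.6 against 120.2 ± 43.2 CPM (2.15 ± 0.30), where the other kept cells gave 1.24 and 0.95 and the Slitrk6 cells, against the same vestibular cells, 3.90 and 1.91.

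S100a1, S100a13, Skp1a and Fbxo2, chosen after their values were seen, were higher by 2.53 to 4.17 on the log2 scale. These 4 genes were also abundant in the Slitrk6 cells, at 19542, 4922, 14110 and 10150 CPM. Lum was at 468, 594, 389 and 512 CPM against 2.87, 8.52, 4.93 and 28.2 CPM (5.80 ± 0.44), and 1.06 in the other kept cells. Of 8 tested immediate early and stress genes, 6 were higher, among them Jun (2.11 ± 0.37) and Jund (1.08 ± 0.23), and Hspa5, a chaperone of the endoplasmic reticulum, was lower (-0.81 ± 0.20). Over all genes 12.9% were higher and 14.5% lower. In the other kept cells Jun differed by 1.97. The summed level of these 12 genes was highest in cochlear replicate 4, at 2847 CPM against 1307 to 1689 CPM in the other libraries of the Aqp4 Tnnt2 cells, and at 4044 against 1363 to 1414 CPM in the other kept cochlear cells.

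The vestibular population held more stromal, marginal cell and melanocyte transcripts. Its 10 fibrocyte and stromal genes summed to 4166 to 11233 CPM, against 746 to 1474 CPM in the Aqp4 Tnnt2 cells, and its 8 marginal cell and melanocyte genes to 71.7 to 1415 CPM against 5.05 to 41.4 CPM. The sums of macrophage genes (2.87 to 335 CPM), of glial and neuronal genes (120 to 301 CPM) and of endothelial genes (8.60 to 25.1 CPM) overlapped those of the Aqp4 Tnnt2 cells. Of the 6 tested stromal genes, 4 were lower in the Aqp4 Tnnt2 cells (Otos, Dcn, Coch and Apod) and 1, Lum, was higher as given above. Over all genes 14.5% were lower and 12.9% higher. Coch and Apod, and Dct of the melanocyte list, were lower by 4.91, 3.92 and 5.38 on the log2 scale. When only vestibular cells with an Epcam UMI and fewer than 3 stromal genes were used, an alternative added after the data were seen, 781 genes were higher and 954 lower. Of the calls above, 693 and 808 remained, Coch and Apod lost theirs, and the 20 genes named first kept theirs. Coch and Apod are among the stromal genes that this choice of cells reads, so their loss is in part fixed by it. Ucma, a cartilage gene, went from -2.35 to 0.14 on the log2 scale.

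In the Aqp4 Tnnt2 cells themselves the stromal list was carried by Lum (491 ± 85.6 CPM), Car3 (366 ± 229.9 CPM) and Apod (142 ± 99.4 CPM), while 1 of its 10 genes, the collagen gene Col1a1, had no UMI. The 10 glial and neuronal genes summed to 50.5 to 476 CPM, and the 10 HC transcripts to 124 to 225 CPM against 1483 to 3383 CPM in the other kept cochlear cells. The gate limits HC genes and the other kept cells hold the HCs, so this contrast is in part fixed by the rule. Macrophage genes summed to 40.9, 264, 0 and 298 CPM. Haemoglobin and granulocyte genes summed to 299 to 8925 CPM, and in replicate 5 all 1928 UMIs of S100a8 came from 1 cell. No doublets were called, 1 barcode of these cells also occurred among the kept cells of another cochlear library, and the part of doublets and free RNA was not tested.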

How the data were processed

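The authors deposited raw UMI counts per gene and barcode for each library, made per the labels with Cell Ranger 6.1.2 on mm10 (file headers give 5.0.1 for replicates 1 and 2), and their notes name Seurat. Cells were kept and gated as stated above. No doublet caller was run. Replicates 1 and 2 of each organ held the same cells, so replicate 2 was not used. Counts were summed per library over the gated cells and given as CPM. Intervals are exact binomial at 95% and cover counting error only, and a level of 0 was set against 3 counts. The planned vestibular population, cells passing the same gate, was too small, and the stated fallback was used. Organs were compared with edgeR 4.0.16 in R 4.3.3 (TMM, filterByExpr, quasi-likelihood test, Benjamini-Hochberg adjustment, 0.05). DESeq2 1.42.0 and other settings were alternatives. On simulated counts for the organ test, 99.5% of 182 genes changed by 2 on the log2 scale were recovered over 7241 genes tested, and 3.21% of calls were unchanged genes. The p-values weigh the organ difference against the spread between libraries. Each library pools mice, so the spread between animals was not measured.

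Members and lists were chosen with earlier results of these data known, and the genes of the rule were not called. Named genes were those of the rule, up to 4 of each list by level, and in the organ test the 10 genes with the largest log2 fold change in each direction whose libraries did not overlap, with at least 20 CPM in the higher population and a level above that in the other kept cells of that organ. Further list genes were named after their values were seen. Genes with near-identical copies may share reads. Some genes of the lists and of the vestibular gate are not reported here.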

Additional observations from a re-analysis of the deposited data

Results flagged for a closer look

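In 9 of 65 groups of 4 libraries tested, 1 library of the Aqp4 Tnnt2 cells lay farther from the others than Dixon's 95% value allows, and in all 9 it was replicate 1, the highest. Chance gives about 1 in 20 groups where groups are independent. Groups here share libraries, so the 9 are not independent and cannot be weighed against that rate. Replicate 1 had 62 such cells, with a median of 3710 UMIs against 7190 to 8993 in the others. Sox2 was at 156 CPM there against 101 to 106 CPM in the other libraries, and Gata3 at 1973 against 796 to 954 CPM. Gjb6 was at 874 against 489.7 to 527 CPM, Kcnj16 at 1411 against 479.8 to 554 CPM and Slc12a7 at 373 against 124 to 143 CPM. Hey1 was at 143 against 58.9 to 71.0 CPM and the gate gene Pcdh17 at 307 against 116 to 138 CPM. Gdf6 was at 171 against 37.0 to 45.3 CPM and Unc5b at 110 against 33.1 to 40.4 CPM. File headers also give Cell Ranger 5.0.1 for replicate 1, where the labels give 6.1.2. The parts of depth and of this version in these values were not tested.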

How the results depend on the processing

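The mean share of Aqp4 Tnnt2 cells was 5.08% with at least 4 gate genes and 2.32% with the gate read at 1000 UMIs, and it ranged from 7.88% to 11.4% with 1 library left out. The genes above the Slitrk6 cells without overlap numbered 968 to 1290 with 1 library left out and those below 1081 to 1579, where fewer libraries overlap less often by construction, and 452 lay below with the gate read at 1000 UMIs. In the organ test, the counts of higher and lower genes stayed within 1.5 times those reported under all alternatives run, from 699 to 1328 and 727 to 1525 (1114 and 1525 without the filter, of 18736 genes). The genes called changed more than their counts. With the gate read at 1000 UMIs, 544 of the 959 higher and 567 of the 1078 lower calls remained, over 4579 genes tested. Under 10% mitochondrial UMIs 687 and 686 remained, and with DESeq2 859 and 994. The correlations of same-numbered deviations between organs were all positive (0.0601 to 0.297) and over 0.1 in 3 of 4 pairs, but not every library correlated best with its own number (cochlear replicate 3 gave 0.0920 with vestibular replicate 4), so a pairing was neither shown nor assumed. With the replicate number as a block 1192 genes were higher and 1254 lower. Of 1381 values of 70 named genes under alternatives, 1371 kept their side of the threshold and, where past it, their direction. A gene filtered out in a setting gave no value. Ucma went to 0.14 (edgeR adjusted p = 0.867) with Epcam-positive vestibular cells, and the cause was not tested. The other calls lost were Ucma and Id1 with 4 of 8 vestibular genes, Nupr1 and Gjb2 under 10% mitochondrial UMIs, Gjb2 with at least 5 gate genes, and Coch and Apod with Epcam-positive vestibular cells, and those gained were Utrn with the gate at 1000 UMIs and Hes1 with at least 5 gate genes. Leaving the planned same-gate vestibular population in place could not be run, as it held 0, 18, 1 and 1 cells. Levels under 0.644 CPM are at the limit of 3 counts.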
